A study of Homo sapiens with 8 samples.

Results

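The urokinase system is the group of proteins that turns plasminogen into plasmin at the cell surface, and 5 of its genes were followed here: PLAU (urokinase), PLAUR (the urokinase receptor), PLAT (tissue plasminogen activator) and the inhibitors SERPINE2 and SERPINB2. They were chosen by gene symbol, and all their probes were taken. Of the 16922 genes named on the array, 4 of the 5 had a probe, with 6 of the 24526 probes among them; no probe was named for SERPINB2, which was not analysed here. Of these 6 probes 5 passed the filter on dim probes, for 3 genes (PLAU, PLAUR and SERPINE2) of the 10856 tested, while the PLAT probe did not pass.

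RNA came from SW620, a human colorectal cancer cell line, on 8 single-colour Illumina bead arrays. The first pair of groups, 2 arrays each, was SW620 cells given 4 uM Y15, which inhibits the tyrosine kinase FAK, against untreated cells. The second pair, also 2 arrays each, was cells transfected with an siRNA to HAS3, one of the hyaluronan synthases, against cells transfected with a scrambled sequence. Every culture was kept for 24 h, and the untreated cells, unlike the scrambled control, went through no transfection. Since no label says that the arrays of a group were separate cultures, a p-value here reflects the spread from array to array, and that spread could be purely technical.

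Urokinase is a secreted serine protease that binds its receptor, a protein held on the membrane by a lipid anchor, and there cleaves plasminogen to plasmin, a protease that digests fibrin and matrix. Serpins end this activity by trapping the protease in a covalent complex, and the complex on the receptor is then taken up through receptors of the LDL receptor family. In colorectal tumours the system is best known for its part in invasion. The receptor has no cytoplasmic part and works with integrins, among other partners.

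The second Y15 array was dim, with a mean intensity of 234.1, against 352.1 to 524.7 on the other 7, and its median of 42.7 was also below their 50.4 to 72.2. A probe was called detected on an array at a detection p under 0.05, which held for 12578 to 13916 probes. Normalized arrays of 1 group correlated at 0.990 to 0.996 over the 10856 genes tested, with 1 probe for each gene. HAS3 itself stood at log2 10.05 and 9.73 on the HAS3 siRNA arrays, against 10.49 and 10.16 on the scrambled arrays, a difference of -0.43 ± 0.17 (SE) that did not pass (limma, adjusted p = 0.151), and it was lower still, at 9.32 and 9.50, on the untreated arrays. Of 9 colon epithelial markers 7 were detected on both arrays of every group, and KRT20 and LGALS4 on neither array of any. The leukocyte markers PTPRC, CD3E and CSF1R and the fibroblast markers COL1A2, COL3A1, THY1 and FAP were detected in no group. Other markers of these lists were detected. Of 9 fibroblast markers, 2 to 4 were detected on both arrays of a given group. The same held for 1 or 2 of 6 endothelial markers and for 1 or 2 of 6 leukocyte markers with a probe. The fibroblast marker PDGFRA, the endothelial marker PECAM1 and the leukocyte marker CD68 were detected on both arrays of every group.

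The promoters of the 3 tested genes are shown because transcription factors known to act on those of PLAU and PLAUR are described with the results. No such list was drawn up for SERPINE2. Each window runs from 250 bases before to 50 bases after a transcription start, 5′ to 3′ on the gene's strand, from RefSeq on GRCh38.p14. Capitals mark matches on either strand to the AP-1 motif TGANTCA and to the SP1 motif GGGCGG (complement CCGCCC). RefSeq gives 2 such windows each for PLAU and SERPINE2, and the one with more of these matches is shown.
PLAUR, chr19:43670120-43670419, minus strand: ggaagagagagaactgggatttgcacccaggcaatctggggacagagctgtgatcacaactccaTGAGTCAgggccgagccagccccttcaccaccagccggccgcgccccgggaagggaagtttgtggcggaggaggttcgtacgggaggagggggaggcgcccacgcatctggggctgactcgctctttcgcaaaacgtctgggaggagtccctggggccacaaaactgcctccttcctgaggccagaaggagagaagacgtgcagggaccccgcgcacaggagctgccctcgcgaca
PLAU, second window, chr10:73910882-73911181, plus strand: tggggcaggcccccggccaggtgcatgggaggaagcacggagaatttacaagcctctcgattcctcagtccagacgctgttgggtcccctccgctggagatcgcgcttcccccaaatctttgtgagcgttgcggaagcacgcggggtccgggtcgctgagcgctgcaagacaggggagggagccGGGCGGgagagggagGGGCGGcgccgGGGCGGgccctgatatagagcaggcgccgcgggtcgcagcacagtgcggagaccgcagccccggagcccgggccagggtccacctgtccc
SERPINE2, first window, chr2:224038591-224038890, minus strand: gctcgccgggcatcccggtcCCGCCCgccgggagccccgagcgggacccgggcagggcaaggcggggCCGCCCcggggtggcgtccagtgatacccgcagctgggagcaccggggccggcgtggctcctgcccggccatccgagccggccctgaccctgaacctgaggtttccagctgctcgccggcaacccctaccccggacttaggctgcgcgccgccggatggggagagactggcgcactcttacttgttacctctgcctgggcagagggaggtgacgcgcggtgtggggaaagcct

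The PLAUR window held 1 AP-1 match, whose first base lies at -186 from the start, and no SP1 match. The PLAU window held 3 SP1 matches, at -66, -51 and -40, and the SERPINE2 window held 2, at -230 and -183. The windows not shown held 0 (PLAU) and 1 (SERPINE2), so the choice of window sets these counts. Among 35116 promoter windows of the same length, 7.71% held an AP-1 match and 45% an SP1 match, in windows not picked for their matches. The ETS core GGAA was found in all 3 windows, 4 times each for PLAUR and PLAU and 2 times for SERPINE2, and in 95.5% of all windows, so its presence separates few promoters. The TEAD motif GGAATG, which overlaps the ETS core, and the kappaB consensus were found in none of the 3 windows, against 14% and 11.3% of all windows. The window of SERPINB2, not printed, held 1 AP-1 match at -102 and 1 TATAAA at -30, a motif that 11.5% of windows hold. A match describes these letters and is not a site of binding.

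PLAU and PLAUR were higher with Y15 by a wide margin, and SERPINE2 was higher by less. PLAU was 3.33-fold and PLAUR, by the brightest of its 3 probes, 7.23-fold higher in Y15 cells than in untreated cells, and SERPINE2 1.64-fold. The size of the PLAUR difference varied between its probes. With HAS3 siRNA against the scrambled sequence, SERPINE2 was 1.73-fold lower, and neither PLAU nor PLAUR passed the test. The SERPINE2 calls with Y15 and with HAS3 siRNA were both lost when arrays were centred on their medians in place of quantile normalization. Against untreated cells, SERPINE2 was also lower in cells given the scrambled sequence. So was PLAUR by the probe used for it, a call that rested on single arrays. The extract protocol in the labels speaks of frozen tissue, while every other label gives SW620 cells; taken as such, these are levels in RNA of whole cultures, in which fewer cells that make a transcript and less of it per cell cannot be told apart.

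PLAU encodes urokinase, the ligand of the receptor and the protease of the system. Its deposited intensity, from 1 probe (ILMN_1656057), was 316.7 and 150.8 on the Y15 arrays, 143.8 and 109.1 on the HAS3 siRNA arrays, 85.2 and 86.6 on the scrambled arrays, and 147.5 and 134.7 on the untreated arrays. The second Y15 array lay just above the untreated ones on this scale, and that array was dim as a whole. Divided by the median of its array, the intensity was 5.12 and 3.53 with Y15, 2.12 and 1.88 with HAS3 siRNA, 1.59 and 1.72 with the scrambled sequence, and 2.04 and 2.10 without treatment. Both Y15 arrays then stood clear of all the others.

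After background correction and quantile normalization, the log2 level of PLAU was 8.09 and 8.17 with Y15, 6.43 and 6.35 with HAS3 siRNA, 6.12 and 6.31 with the scrambled sequence, and 6.35 and 6.44 without treatment. The group means were 8.13 ± 0.06, 6.39 ± 0.05, 6.22 ± 0.14 and 6.40 ± 0.07 (SD, n = 2 arrays each) in that order of groups. The Y15 arrays were the only high ones, and the 6 others lay between 6.12 and 6.44. The difference between Y15 and untreated cells was 1.73 ± 0.13 on the log2 scale (SE; 95% interval 1.44 to 2.03; limma, adjusted p = 2.79e-06). The order below Y15 was untreated, HAS3 siRNA and scrambled, and no neighbours among these 3 differed by the test. HAS3 siRNA minus scrambled was 0.17, with a 95% interval of -0.12 to 0.46 (limma, adjusted p = 0.517). Scrambled minus untreated was -0.18, with an interval of -0.48 to 0.11 (limma, adjusted p = 0.385).

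**Figure D1:**
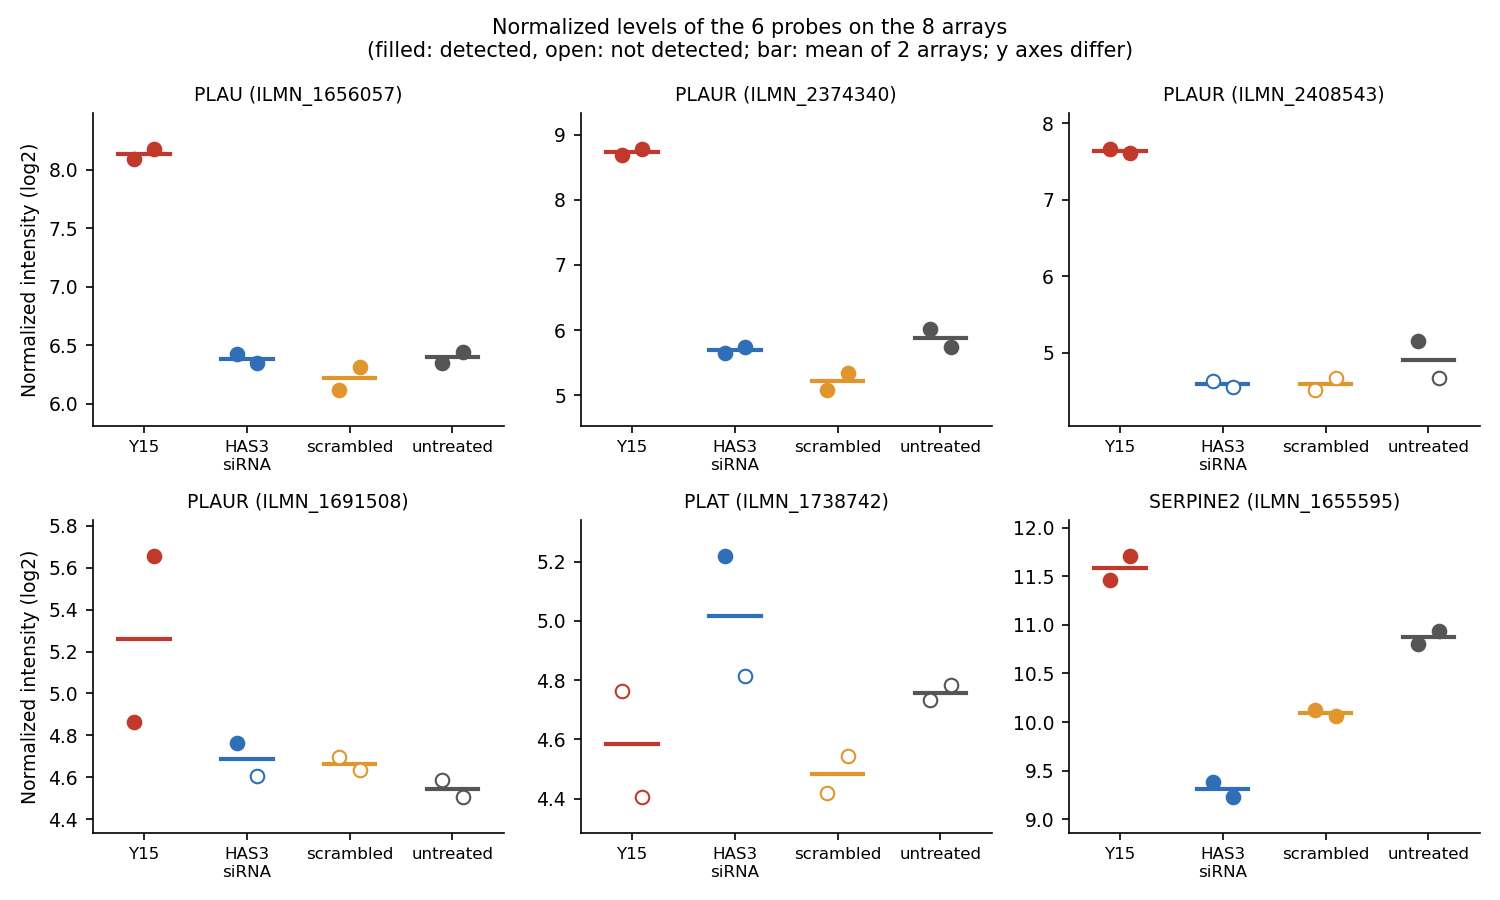
Normalized log2 intensity (y axis, a separate scale in each panel) of the 6 probes in the 4 groups (x axis); each point is 1 array, filled where detected and open where not, and each bar is the mean of 2 arrays. For PLAU and the PLAUR probes ILMN_2374340 and ILMN_2408543 the Y15 arrays stand alone above the rest, PLAT is detected on 1 array of 8, and SERPINE2 steps down from Y15 through untreated and scrambled to HAS3 siRNA.

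PLAUR encodes the receptor that holds urokinase on the membrane, and it had 3 probes. The probe used for the gene, ILMN_2374340, which has the highest mean of the 3, had a deposited intensity of 463.2 and 218.7 on the Y15 arrays, 92.5 and 78.9 with HAS3 siRNA, 53.8 and 55.8 with the scrambled sequence, and 120.8 and 90.3 without treatment. Over the median of its array this was 7.50 and 5.12 with Y15, 1.36 on both HAS3 siRNA arrays, 1.01 and 1.11 with the scrambled sequence, and 1.67 and 1.41 without treatment. Both Y15 arrays were above every other array on either scale, and in the other groups the probe lay at 1.01 to 1.67 times the array's median.

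The normalized log2 level of this PLAUR probe was 8.68 and 8.77 with Y15, 5.65 and 5.74 with HAS3 siRNA, 5.09 and 5.34 with the scrambled sequence, and 6.01 and 5.74 without treatment. The means were 8.73 ± 0.06 with Y15, 5.69 ± 0.06 with HAS3 siRNA, 5.22 ± 0.18 with the scrambled sequence and 5.87 ± 0.19 without treatment (SD, n = 2 arrays each). The Y15 arrays lay far above a low level in the other 3 groups, and the scrambled arrays were the lowest. The Y15 cells exceeded the untreated cells by 2.85 ± 0.15 (SE; 95% interval 2.53 to 3.18; limma, adjusted p = 1.49e-07).

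In the 2 transfected groups PLAUR was 0.48 ± 0.15 higher with HAS3 siRNA than with the scrambled sequence, and the arrays did not overlap, but the difference did not pass (95% interval 0.15 to 0.80; limma, adjusted p = 0.0749). The scrambled cells were lower than the untreated cells by the test, at -0.66 ± 0.15 (SE; 1.58-fold lower; limma, adjusted p = 0.00995). That call rested on single arrays: limma gave -0.52 (adjusted p = 0.0893) when the first untreated array was left out, and -0.53 (adjusted p = 0.118) when the first scrambled array was. The probe was also close to background on the scrambled arrays, at a detection p of 0.0421 and 0.0259. The difference was smaller, though still called, with a background offset of 50 (-0.39) and without background correction (-0.44). HAS3 siRNA minus untreated was -0.18, with an interval of -0.51 to 0.14 (limma, adjusted p = 0.415). In the order of levels, Y15, untreated, HAS3 siRNA, scrambled, only the step from Y15 to its neighbour passed the test.

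The other PLAUR probes are assigned by the platform annotation to the transcript variant of ILMN_2374340 (ILMN_1691508) and to another variant (ILMN_2408543). ILMN_2408543 stood at log2 7.66 and 7.61 with Y15, 4.64 and 4.55 with HAS3 siRNA, 4.52 and 4.67 with the scrambled sequence, and 5.15 and 4.67 without treatment, and outside Y15 it was detected on 1 untreated array alone. Its fitted difference between Y15 and untreated cells was 2.73 on the log2 scale, against a group in which 1 of 2 arrays was not above background. ILMN_1691508 stood at 4.86 and 5.65 with Y15, 4.77 and 4.61 with HAS3 siRNA, 4.70 and 4.63 with the scrambled sequence, and 4.59 and 4.51 without treatment. It was detected on both Y15 arrays, on 1 HAS3 siRNA array and on no other, and its Y15 level was at least 1.37-fold that of untreated cells. The bound sets the Y15 mean against, on each untreated array, the higher of the probe's own level and the lowest level of a detected probe. The fitted difference of ILMN_1691508 was 0.71 on the log2 scale, far smaller than the 2.85 of ILMN_2374340, assigned to the same variant. By the mean of the 3 probes PLAUR differed by 2.10. ILMN_2408543 and ILMN_1691508 both passed the filter on dim probes only through the Y15 arrays. Their differences with Y15 are therefore descriptions and do not support that of the first probe. With HAS3 siRNA against the scrambled sequence neither passed, ILMN_2408543 being undetected on all 4 arrays. Nor did either pass in scrambled minus untreated. The log2 difference there was -0.31 for ILMN_2408543 (limma, adjusted p = 0.219) and 0.12 for ILMN_1691508 (limma, adjusted p = 0.736).

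**Figure D2:**
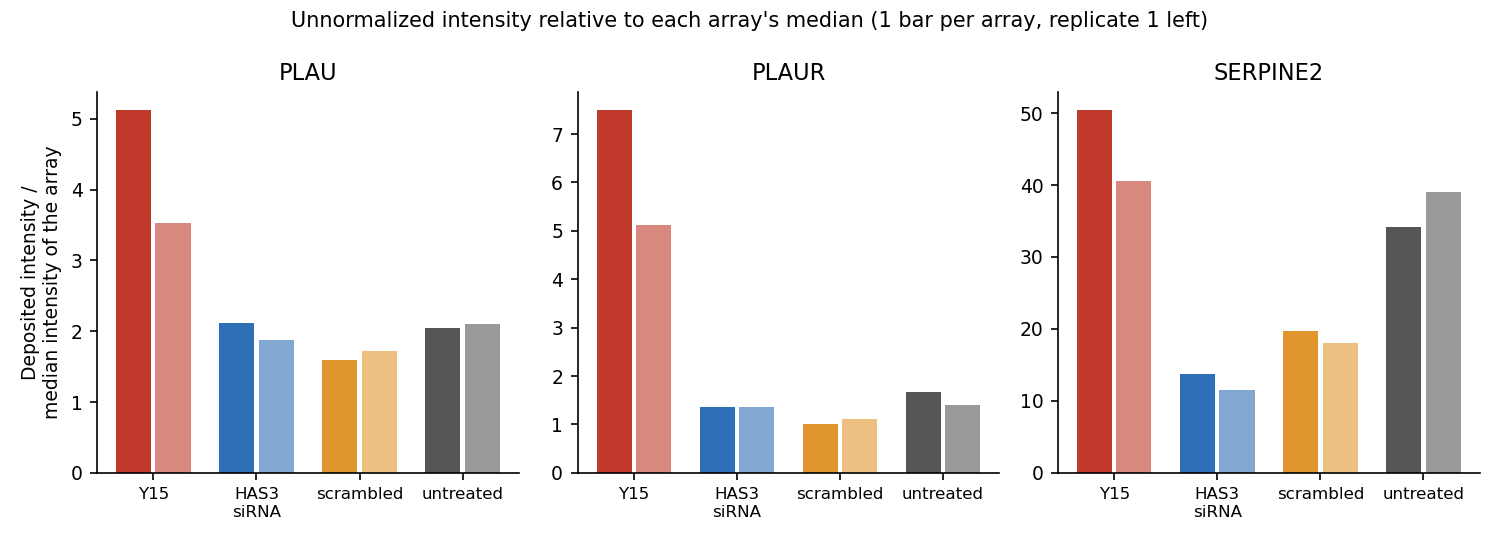
Deposited intensity, before normalization, of the probe used for PLAU, PLAUR and SERPINE2, divided by the median intensity of its array (y axis from 0, a separate scale in each panel); 1 bar per array, replicate 1 on the left of each group. The PLAU and PLAUR bars are tall on the Y15 arrays alone, between 3.53 and 7.50, and the SERPINE2 bars are tall on the Y15 and untreated arrays and shortest on the HAS3 siRNA arrays.

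PLAT encodes the other plasminogen activator, best known for dissolving clots in blood vessels. Its 1 probe had a deposited intensity of 52.8 and 32.3 with Y15, 73.7 and 51.2 with HAS3 siRNA, 35.6 and 39 with the scrambled sequence, and 58.1 and 54.9 without treatment. It passed the detection threshold on 1 array of 8, the first HAS3 siRNA array, at a detection p of 0.0259. The next lowest detection p was 0.0518, so most of its arrays were close to background, and no difference was tested. SERPINB2, which encodes plasminogen activator inhibitor 2, had no named probe.

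SERPINE2 encodes protease nexin-1, a serpin that inhibits urokinase, plasmin and thrombin. Its 1 probe, ILMN_1655595, had a deposited intensity of 3115.2 and 1732.9 with Y15, 935.2 and 671.3 with HAS3 siRNA, 1054.2 and 906.9 with the scrambled sequence, and 2463 and 2505.2 without treatment. On this scale the 2 Y15 arrays lay on either side of the untreated ones. Over the median of its array it was 50.4 and 40.6 with Y15, 13.8 and 11.6 with HAS3 siRNA, 19.7 and 18.0 with the scrambled sequence, and 34.1 and 39.1 without treatment. Here the Y15 arrays were above the untreated ones, the lower of them by little.

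The normalized log2 level of SERPINE2 was 11.46 and 11.71 with Y15, 9.38 and 9.23 with HAS3 siRNA, 10.13 and 10.06 with the scrambled sequence, and 10.81 and 10.94 without treatment. The means were 11.58 ± 0.17 with Y15, 9.31 ± 0.11 with HAS3 siRNA, 10.10 ± 0.04 with the scrambled sequence and 10.87 ± 0.10 without treatment (SD, n = 2 arrays each). The arrays of the 4 groups did not overlap, and each step in the order Y15, untreated, scrambled, HAS3 siRNA passed the test. Y15 minus untreated was 0.71 ± 0.14 (SE; 95% interval 0.40 to 1.02; limma, adjusted p = 0.0019). HAS3 siRNA minus scrambled was -0.79 ± 0.14 (SE; 95% interval -1.10 to -0.48; limma, adjusted p = 0.00462). Scrambled minus untreated was -0.78 ± 0.14 (SE; 1.72-fold lower; limma, adjusted p = 0.00322).

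The scrambled sequence was thus accompanied by a fall of SERPINE2 of about the same size as the further fall with HAS3 siRNA, and HAS3 siRNA cells were 2.97-fold below untreated cells (-1.57 ± 0.14, SE; limma, adjusted p = 2.33e-05). These comparisons share the scrambled or the untreated arrays. Centring each array on its median in place of quantile normalization ended the call with Y15 (0.36, adjusted p = 0.245, beside a median of -0.31 over all genes) and with HAS3 siRNA against scrambled (-0.62, adjusted p = 0.2), both by limma. The call with HAS3 siRNA was also lost without its second array (-0.71; limma, adjusted p = 0.0579).

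Against all genes tested, 3 of 3 members rose with Y15, where 18.8% of genes rose and 23% fell. With HAS3 siRNA against the scrambled sequence 0 of 3 rose and 1 of 3 fell, where 3.47% of genes rose and 4.74% fell. Between the scrambled and untreated groups 2 of 3 fell, where 8.84% of genes rose and 10.7% fell. Between HAS3 siRNA and untreated cells 1 of 3 fell, where 12.2% rose and 14% fell. The arrays did not overlap for 3 of 3 members both with Y15 and with HAS3 siRNA, but this held for 67.8% and 57.6% of all genes, so it separates the members little. The Y15 effect and the HAS3 siRNA effect differed by the test for 3 of 3 members, as for 30.8% of all genes. PLAU, at 1.73, and PLAUR, at 2.85, lay far above the median of all genes with Y15, -0.03.

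**Figure D3:**
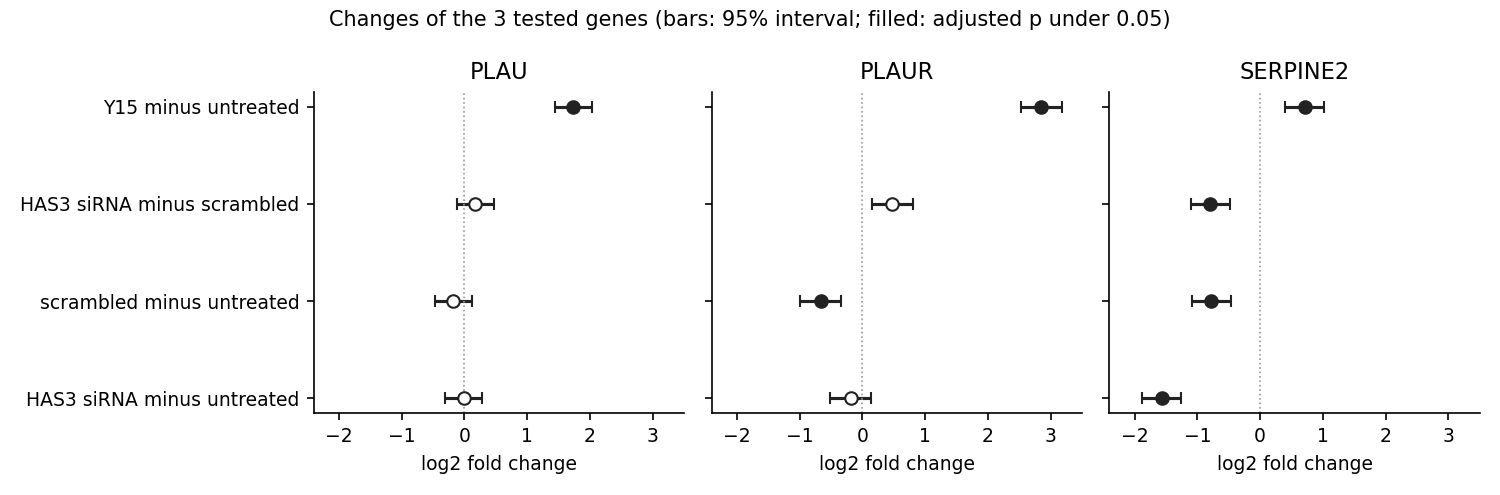
Log2 fold change (x axis) of PLAU, PLAUR and SERPINE2 in 4 comparisons (rows), with 95% intervals; filled points passed the adjusted threshold. The changes of PLAU and PLAUR with Y15 are the largest in their panels, and SERPINE2 is to the right of 0 with Y15 and to the left in the 3 other rows.

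Over the 8 arrays PLAU and PLAUR levels had a Pearson correlation of 0.992, against 0.756 for PLAU and SERPINE2 and 0.769 for PLAUR and SERPINE2. The arrays fall into 4 groups, so these figures describe how the group means run and carry no test. The genes most like PLAU were RND1 (0.997), which encodes a GTPase that loosens the actin cytoskeleton, PELO (0.996), a ribosome rescue factor, and NPC1 (0.996), a lysosomal cholesterol carrier. With Y15 their log2 differences from untreated cells were 2.05, 1.26 and 1.85. The genes most like PLAUR were ITGB7 (0.997), an integrin beta subunit, CCN1 (0.995), a secreted matrix protein that binds integrins, and EPB41L1 (0.994), a cytoskeletal linker, with Y15 differences of 2.41, 1.70 and 1.35. Those most like SERPINE2 were CORO2A (0.989), a coronin, the ribosomal protein gene RPL36 (0.988) and AKAP13 (0.986), an anchor of protein kinase A. Their differences were smaller than those of SERPINE2, at 0.28, 0.14 and 0.42 with Y15 and -0.37, -0.11 and -0.32 with HAS3 siRNA against the scrambled sequence.

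Of a list of 6 other inhibitors of plasminogen activators and plasmin, 5 had a probe and only 2 were tested. Both of these fell with Y15. Over all genes tested, 18.8% rose and 23% fell with Y15. With HAS3 siRNA against the scrambled sequence, 3.47% rose and 4.74% fell. These shares stand beside the counts of the other lists and the markers below as well. SERPINI1, neuroserpin, an inhibitor of tissue plasminogen activator, stood at 5.92 and 6.19 with Y15, against 6.66 and 7.07 without, and was 1.75-fold lower (limma, adjusted p = 0.00202). SERPINF2, alpha-2-antiplasmin, was 1.93-fold lower (limma, adjusted p = 0.000333). With HAS3 siRNA SERPINI1 stood at 5.76 and 5.66, against 7.08 on both scrambled arrays, a fall of 2.59-fold (limma, adjusted p = 0.000308), while SERPINF2 did not pass. SERPINA5, A2M and SERPINC1 were detected on no array.

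Of 5 genes for plasminogen and its binders at the cell surface, 4 were tested: 2 rose and 1 fell with Y15, and 1 fell with HAS3 siRNA. ANXA2, annexin A2, which with S100A10 forms a complex that binds plasminogen, stood at 13.67 and 13.73 with Y15, against 12.74 and 12.86 without. It was 1.86-fold higher, and its 2 further probes were higher by 1.63 and 1.20 on the log2 scale. S100A10 was 1.35-fold higher. PLGRKT, a plasminogen receptor with a terminal lysine, was 1.49-fold lower with Y15 and 2.01-fold lower with HAS3 siRNA than with the scrambled sequence, at 8.39 and 8.34 against 9.41 and 9.33 (limma, adjusted p = 0.000606). Plasminogen itself, PLG, was detected on no array.

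Of 17 partners and clearance receptors of the urokinase receptor, 10 were tested: 1 rose and 3 fell with Y15, and 0 rose and 2 fell with HAS3 siRNA against the scrambled sequence. Over all genes, 41.8% passed with Y15 and 8.22% with HAS3 siRNA, in either direction. VLDLR, an endocytic receptor that takes up urokinase bound to its inhibitors, stood at 8.10 and 8.45 with Y15, against 7.32 and 7.37 without (1.91-fold higher; limma, adjusted p = 0.036). With HAS3 siRNA it stood at 5.19 and 5.09, against 6.15 and 7.54 with the scrambled sequence, a pair of arrays far apart (3.26-fold lower; limma, adjusted p = 0.00631). The HAS3 siRNA arrays were close to background for VLDLR, at a detection p of 0.0259 and 0.0324, so the size of this fold is uncertain. SORL1, a relative of VLDLR, was 2.06-fold lower with Y15, and LRPAP1, a chaperone of this receptor family, was lower by 0.44 on the log2 scale. IGF2R, which binds the urokinase receptor and lysosomal enzymes, was lower by 0.59 on the log2 scale with Y15 and 1.65-fold lower with HAS3 siRNA. The integrin subunits ITGB1, ITGAV, ITGB5, ITGA3 and ITGA5 did not pass in either comparison, and VTN, ITGB3, EGFR, FPR1 and FPR2 were detected on no array.

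Of 15 proteases and latent factors upstream or downstream of urokinase, 11 were tested: 1 rose and 3 fell with Y15, and 2 rose and 1 fell with HAS3 siRNA. The shares of all genes passing in either direction were 41.8% and 8.22%. ST14, matriptase, a membrane protease that can activate urokinase, was 1.62-fold lower with Y15. With HAS3 siRNA it stood at 7.74 and 7.77, against 8.97 and 9.19 with the scrambled sequence (2.50-fold lower; limma, adjusted p = 0.000976). CTSB, cathepsin B, was lower by 0.62 with Y15 on the log2 scale, and HPN, hepsin, was counted as a fall, but it was detected on the 2 untreated arrays alone and so passed the filter only through them (at least 1.19-fold lower). MMP7, matrilysin, was 1.47-fold higher with Y15, against untreated arrays close to background, and 1.94-fold higher with HAS3 siRNA. CTSL, cathepsin L, stood at 7.33 and 7.56 with HAS3 siRNA, against 5.49 and 5.62 with the scrambled sequence, and was 3.69-fold higher (limma, adjusted p = 3.8e-05), with further probes higher by 0.67 and 2.12. MMP1, MMP9, MMP13 and TGFB1 were detected on no array.

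The relatives of SERPINB2 and SERPINE2 were mostly undetected. Of 14 clade B and clade E serpins, 11 had a probe and 3 were tested; 2 rose with Y15 and none passed with HAS3 siRNA. SERPINB5, maspin, stood at 7.72 and 7.81 with Y15, against 5.21 and 5.35 without, and was 5.61-fold higher. SERPINB8, an inhibitor of furin, stood at 6.96 and 7.28 with Y15, against 5.10 and 4.97 without, and was 4.24-fold higher, with a second probe higher by 2.21 on the log2 scale. In RefSeq both genes lie in 1 run with SERPINB2 on chromosome 18, SERPINB5 at its first and SERPINB8 at its last place. The run holds 10 clade B serpins, of which 7 have a probe that was detected on no array, among them both clade B neighbours of SERPINB2, SERPINB7 and SERPINB10.

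The transcription factors on the list are those known to act on the PLAU and PLAUR promoters, and 15 of 15 were tested. With Y15 5 rose and 1 fell, where 18.8% of all genes rose and 23% fell (41.8% in either direction). With HAS3 siRNA against the scrambled sequence none passed, where 8.22% of all genes did. ETS1, which binds the ETS core, stood at 10.75 and 10.73 with Y15, against 7.63 and 7.97 without, and was 7.69-fold higher. FOSL1, the Fra-1 subunit of AP-1, stood at 11.24 and 11.06 with Y15, against 8.51 and 8.16 without, and was 7.03-fold higher. The AP-1 subunits FOSB and JUNB were 1.97-fold and 1.74-fold higher, RELA, a subunit of NF-kappaB, 1.58-fold higher, and JUND, another AP-1 subunit, 1.48-fold lower. FOS, JUN, FOSL2, ETS2, ETV4, NFKB1, REL, SP1 and SP3 did not pass. The median of the 15 was 0.18 with Y15 and 0.04 with HAS3 siRNA, beside -0.03 and 0.01 over all genes.

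Of the leukocyte markers 3 were tested and 2 rose with Y15, as did 1 of 2 endothelial markers tested, and 1 of 4 fibroblast markers tested fell. CD68, a lysosomal protein that is abundant in macrophages and present in other cells, stood at 7.69 and 7.37 with Y15, against 5.75 and 5.73 without (limma, adjusted p = 7.84e-06). CD14 stood at 5.81 and 5.57 with Y15, against 5.26 and 5.28 without, and VWF at 5.68 and 5.90, against 5.08 and 5.34. The normalized intensity summed over the 6 leukocyte markers with a probe, on the linear scale, was 326.6 to 357.9 with Y15, against 191.9 to 192.6 without. Most of the rise in this sum was that of CD68 alone. PTPRC, CD3E and CSF1R were undetected in both groups. That of the 6 endothelial markers was 180.4 to 218.2 with Y15, against 173.8 to 174.3 without, with CDH5, KDR, TEK and CLDN5 undetected in both. Of 7 epithelial markers tested, 3 fell with Y15 and 2 with HAS3 siRNA. CDX2, a homeobox factor of intestinal epithelium, stood at 6.77 and 6.79 with Y15, against 8.88 and 8.95 without (4.40-fold lower; limma, adjusted p = 1.64e-06), and the log2 differences were -0.65 for VIL1, villin, and -0.46 for KRT8, a keratin. With HAS3 siRNA CDX2 stood at 7.27 and 7.61, against 8.64 and 8.37 with the scrambled sequence. CDH1, E-cadherin of epithelia, stood at 8.56 and 8.54 with HAS3 siRNA, against 10.31 and 10.39 with the scrambled sequence (3.49-fold lower, limma adjusted p = 1.36e-05). The other 5 epithelial markers tested did not pass in that comparison. The summed intensity of the 9 epithelial markers was 16976 to 18667 with Y15, against 17540 to 21289 without, and 18668 to 18942 with HAS3 siRNA, against 18508 to 19785 with the scrambled sequence. KRT8 and KRT19, the brightest of them, made up most of each sum, so the falls of the dimmer CDX2 and CDH1 hardly show in it. The part of these markers in the results was not tested.

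**Figure D4:**
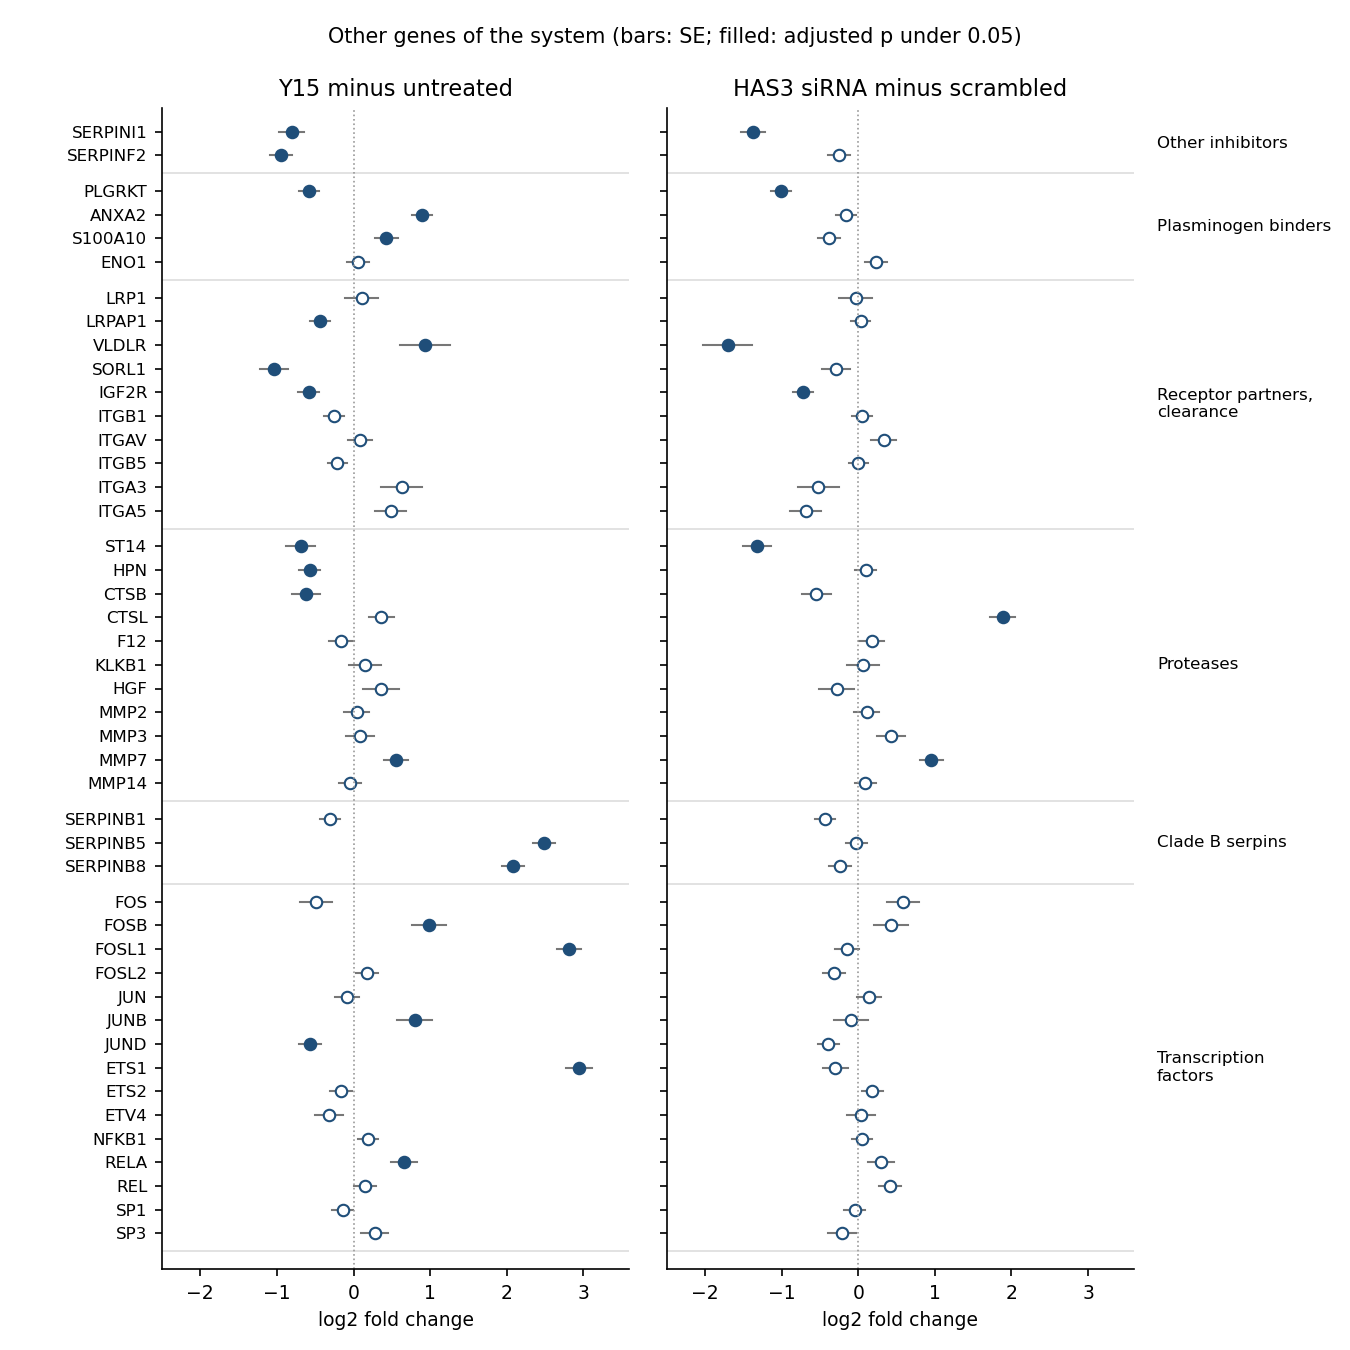
Log2 fold change (x axis) with SE of the tested genes of the 6 lists (rows), for Y15 minus untreated on the left and HAS3 siRNA minus scrambled on the right; filled points passed the adjusted threshold. ETS1, FOSL1, SERPINB5 and SERPINB8 lie beyond 2 with Y15 and near 0 with HAS3 siRNA, where CTSL is the highest and VLDLR the lowest point; HPN was not detected with Y15.

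The calls of PLAU and PLAUR with Y15 held under every alternative in which the gene was tested. PLAU with Y15 ran between 1.04 and 1.78 on the log2 scale, with an adjusted p of at most 0.00254, and PLAUR between 2.01 and 2.99, at most 0.000124, both by limma. PLAUR was not tested where a detection p under 0.01 was asked of all 8 arrays. Without the dim second Y15 array the differences were 1.69 for PLAU, 2.81 for PLAUR and 0.59 for SERPINE2, the last with a limma adjusted p of 0.0128.

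**Figure D5:**
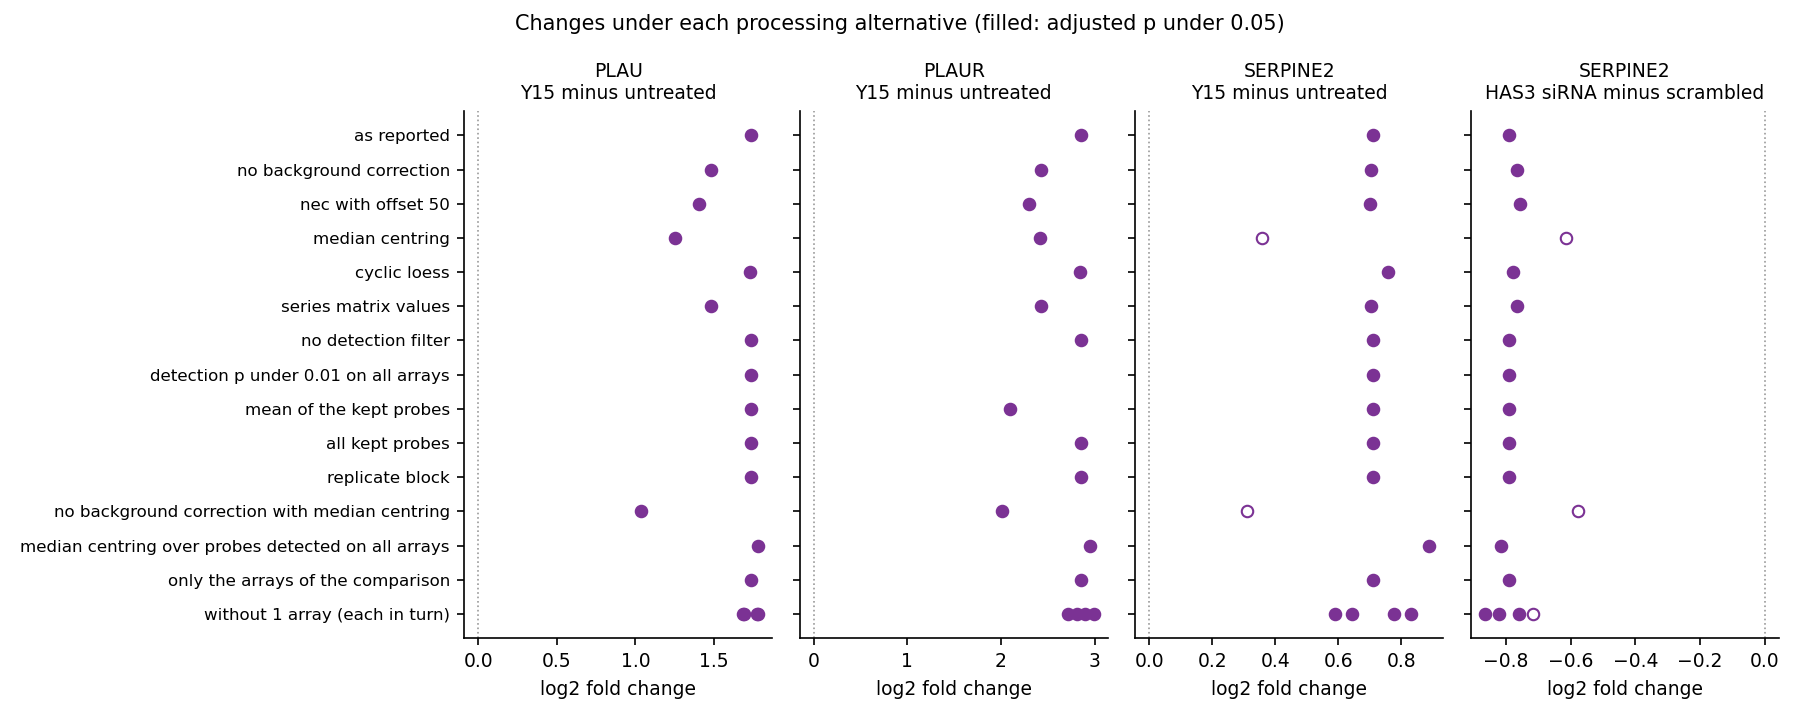
Log2 fold change (x axis, a separate scale in each panel) of PLAU, PLAUR and SERPINE2 for Y15 minus untreated, and of SERPINE2 for HAS3 siRNA minus scrambled, under each processing alternative (rows); filled points passed the adjusted threshold. PLAU and PLAUR are filled in every row where they were tested, and SERPINE2 loses its call with median centring, and without 1 HAS3 siRNA array in the last panel.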

How the data were processed

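RNA of 8 SW620 samples, grouped by their titles, was hybridised to 1 Illumina bead array each, from 250 to 500 ng per the labels' protocols. The non-normalized table deposited by the authors gives each probe a linear intensity, with its detection p-value in the next column per the file headers. The submitters' processing notes name GenomeStudio, and more detail is not given in the sources used here. Log2 values in the deposited series matrix equal the quantile-normalized log2 intensity without background correction, within 5e-09 (column medians 5.86); genes were not centred.

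In R 4.3.3 with limma 3.58.1, intensities were background-corrected with nec (offset 16, from the detection p-values), taken to log2 and quantile-normalized. Probes with a detection p under 0.05 on at least 2 of 8 arrays were kept (14631), named from the platform annotation updated through RefSeq names (21834 of 24526 probes had 1 symbol, none several, 2692 none), and the probe of highest mean stood for its gene. The 8 arrays entered 1 linear model with a mean for each of 4 groups (lmFit and eBayes, two-sided), with Benjamini-Hochberg adjustment over 10856 genes (for single probes, over all kept probes) and a threshold of 0.05. The number of arrays, 2 per group, limits the precision. The code was tested on simulated data.

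The members and lists were chosen with earlier results of these data known; 1 list gene is not reported here. The genes named were the members, HAS3, of each list up to 4 of smallest p per comparison and any that passed beyond 2-fold, and the 3 genes of highest correlation with each member; list genes named as not passing or undetected, and markers, were added to give whole lists or after their values were seen. Alternatives covered background correction, normalization, filter, probe choice, arrays in the fit, the replicate block and leaving out each array. Replicate numbers come from the titles, which name no shared batch, and are 2 per group, so they were not taken as pairs.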

Additional observations from a re-analysis of the deposited data

Results flagged for a closer look

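For each of the 3 tested genes the effect of Y15 (Y15 minus untreated) differed from the effect of HAS3 siRNA (HAS3 siRNA minus scrambled) by a test of the difference itself, in limma over all 8 arrays. The PLAU effects differed by 1.56 ± 0.19 on the log2 scale (SE, adjusted p = 0.000141), at 1.73 with Y15 and 0.17 with HAS3 siRNA. The PLAUR effects differed by 2.38 ± 0.21 (adjusted p = 1.26e-05 by limma), at 2.85 with Y15 and 0.48 with HAS3 siRNA. The SERPINE2 effects differed by 1.50 ± 0.20 (adjusted p = 0.00026 by limma), and they run in opposite directions, at 0.71 with Y15 and -0.79 with HAS3 siRNA. After normalization both Y15 arrays were above both untreated arrays for each gene. The arrays of these 2 groups did not overlap, in either direction, for 67.8% of all genes. The difference between the effects passed for 30.8% of all genes tested.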

How the results depend on the processing

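With 2 arrays per group and dim probes for PLAT and for 2 of the 3 PLAUR probes, small differences of these could not be resolved. With Y15 3 of 3 members passed under every alternative, except SERPINE2 under median centring (0.36, adjusted p = 0.245 by limma), also without background correction (0.31, adjusted p = 0.22), and PLAUR where it was not tested; the cause was not tested. Among genes called with Y15, 45.0% were higher, against 12.7% under median centring, 10.9% under median centring without background correction and 64.9% under centring on probes detected on all arrays, where the median of all genes moved to -0.31, -0.29 and 0.22. The last 2 settings were chosen after seeing the data.

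In HAS3 siRNA minus scrambled the 892 genes called became 323 under median centring, 188 under median centring without background correction and 462 under centring on detected probes, and 1409 with only the arrays of the comparison. The 1 member called became 0, 0, 1 and 2 there (SERPINE2 -0.62 and -0.58 in the first pair, PLAUR 0.48 with adjusted p = 0.0402 in the last). In scrambled minus untreated 2118 became 1057, 663 and 1258 under those 3 centrings. The 2 members became 1 under the last pair, under the mean of probes (PLAUR -0.28, adjusted p = 0.204) and under the strict detection filter, where PLAUR was not tested. In HAS3 siRNA minus untreated 2843 became 1177, 856 and 1893. PLAU, at -0.01 there and never called, ran from -0.0577 to 0.0347 with 1 array left out and turned positive without the second untreated array (0.0347) and without the second HAS3 siRNA array (0.0265). The difference of the effects on PLAU missed the threshold under median centring without background correction (0.77, adjusted p = 0.0586).

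Leaving out 1 array at a time, the genes called ran from 3462 to 4392 with Y15 (4538 with all arrays), 319 to 452 with HAS3 siRNA against scrambled, 696 to 1615 in scrambled minus untreated, 1425 to 1975 in HAS3 siRNA minus untreated and 2249 to 3608 for the difference of effects (3345 with all). The members called were 3, 0 to 1, 1 to 2, 1 and 3 in that order; a lone array was taken to vary like the other groups. Same-numbered arrays had deviations that correlated at 0.27 (Y15 and untreated), 0.04 (HAS3 siRNA and scrambled), -0.07 (scrambled and untreated) and 0.22 (HAS3 siRNA and untreated). A replicate block gave 4851 genes with Y15, 1146 with HAS3 siRNA against scrambled, 2477, 3155 and 3678, and changed no call of a member. The slide as a block was not run, since the column names give no slide.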

Other observations

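Set against untreated cells instead of the scrambled control, HAS3 siRNA cells differed beyond 2-fold in the list genes named here, and these values share arrays with the comparisons above. ITGA5, the integrin subunit of the fibronectin receptor, stood at 5.43 and 5.45 with HAS3 siRNA, against 6.84 and 6.86 without treatment, 2.66-fold lower (limma, adjusted p = 0.000496). On the scrambled arrays ITGA5 stood at 5.74 and 6.51, between these levels, and it did not pass against that control. VLDLR was 4.61-fold lower, ST14 2.91-fold lower, PLGRKT 2.64-fold lower, IGF2R 2.44-fold lower, CTSB 2.30-fold lower and SERPINI1 2.23-fold lower than in untreated cells. The VLDLR probe was close to background on the HAS3 siRNA arrays. CTSB stood at 8.42 and 8.39 on the scrambled arrays and did not pass against that control either. Against untreated cells MMP7 was 3.34-fold higher, at 6.47 and 6.71 against 4.87 and 4.83, and CTSL 2.02-fold higher. The untreated arrays were close to background for MMP7, at a detection p of 0.0421 and 0.0485, so the size of its fold is uncertain.

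CTSL also differed between the control groups: it stood at 5.49 and 5.62 with the scrambled sequence, against 6.26 and 6.59 without treatment, a log2 difference of -0.87 ± 0.17 (SE; limma, adjusted p = 0.00441). MMP7 was higher with the scrambled sequence than without, by 0.79 ± 0.16 (SE; limma, adjusted p = 0.00511). FOS and FOSB, AP-1 subunits, were lower with the scrambled sequence than without, by -0.73 and -0.76 on the log2 scale, and NFKB1 and SP3 were higher by 0.51 and 0.69. Further probes of SP3 and CTSL were divided in this comparison. Those of SP3 gave 0.86 and 0.19, the latter not passing (limma, adjusted p = 0.485). Those of CTSL gave -0.93 and -0.15, the latter not passing (limma, adjusted p = 0.52).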
